A study of Mus musculus with 2 samples.

Results

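Oxidative phosphorylation genes were followed across the cell types of mouse colon tumors. The set held 115 of the 33696 genes listed for the libraries. It was chosen by gene symbol alone and not by any measured value, although earlier results of these data were known. Its 102 nuclear members were the genes whose symbols begin with Ndufa, Ndufb, Ndufc, Ndufs, Ndufv, Uqc, Atp5 or Cox4 to Cox8, together with Sdha to Sdhd. Its 13 mitochondrial members were the protein genes of the mitochondrial chromosome, with symbols in mt-Nd, mt-Co, mt-Atp and mt-Cytb. Of the 115 genes, 113 had at least 1 UMI, that is 1 counted RNA molecule, in the cells used. Older symbols are kept as the files give them, so Atp5g1, Atp5g2 and Atp5g3 are the c-ring genes now called Atp5mc1, Atp5mc2 and Atp5mc3, Atp5e is Atp5f1e and Atp5j2 is Atp5mf.

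The tumors grew under the skin of male BALB/c mice of 6–8 weeks from CT26, a mouse colon carcinoma cell line. One library came from untreated tumors (UT) and the other from tumors given a single dose of 40 mg/kg BUP-Gel, a hydrogel that carries the local anesthetic bupivacaine (BUP), which blocks nerve conduction and is used in the study to inhibit the release of acetylcholine. Each library pooled cells of 3 tumors, after CD45+ and CD45- live cells had been sorted and mixed, 4:1 according to the labels and 3:1 according to the methods, so the share of immune cells was set by the sort. With 1 library per condition there was no replicate and no test of BUP against UT. The values are therefore given side by side, every interval is a 95% interval that covers counting error only, and a difference between the treatments cannot be told apart from a difference between the libraries or their pooled tumors.

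Oxidative phosphorylation is the last stage of respiration, in which electrons from NADH and succinate pass through complexes I, II, III and IV of the inner mitochondrial membrane to oxygen, and the protons moved on the way drive ATP synthase, complex V. Complexes I, III, IV and V are mosaics, with a few core subunits read from the circular mitochondrial genome and the others from nuclear genes whose proteins are imported, whereas complex II is wholly nuclear. Nuclear and mitochondrial members are made by different RNA polymerases, and all mitochondrial members except mt-Nd6 come from a single long transcript of one strand that is then cut, so their RNA levels need not move together. In tumors, T cells and macrophages with different tasks are known to differ in how much they use respiration and glycolysis.

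Promoters of 4 nuclear members are shown because their genes carry results given further on, and because they hold the letters of the 3 motifs known at respiratory chain genes, for NRF1 (the capitals in the line of Atp5g2), for ETS factors such as GABP (CCGGAAG, or CTTCCGG read on the other strand) and for YY1 (AAGATGGCG). Each sequence is from RefSeq on the mouse build GRCm38.p6, runs 5′ to 3′ on the gene's own minus strand from 250 bases before to 50 bases after the start, and has the motif letters in capitals. Cox6a1 encodes the common form of a complex IV subunit (chr5:115348909-115349208), Atp5g2 a form of the c-ring subunit of ATP synthase (chr15:102670998-102671297), Cox8a a small complex IV subunit (chr19:7217567-7217866) and Atp5j2 a membrane subunit of ATP synthase (chr5:145191492-145191791). The last line is the stretch of the mitochondrial chromosome (chrM:7927-7969, GRCm39) that ends mt-Atp8 and begins mt-Atp6, in which a read belongs to both genes.
Cox6a1: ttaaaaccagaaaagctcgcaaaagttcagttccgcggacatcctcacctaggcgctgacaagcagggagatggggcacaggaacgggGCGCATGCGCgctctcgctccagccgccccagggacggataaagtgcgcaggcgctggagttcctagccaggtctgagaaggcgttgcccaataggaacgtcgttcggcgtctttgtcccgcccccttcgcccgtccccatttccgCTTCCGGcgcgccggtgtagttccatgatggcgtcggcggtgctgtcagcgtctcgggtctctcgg
Atp5g2: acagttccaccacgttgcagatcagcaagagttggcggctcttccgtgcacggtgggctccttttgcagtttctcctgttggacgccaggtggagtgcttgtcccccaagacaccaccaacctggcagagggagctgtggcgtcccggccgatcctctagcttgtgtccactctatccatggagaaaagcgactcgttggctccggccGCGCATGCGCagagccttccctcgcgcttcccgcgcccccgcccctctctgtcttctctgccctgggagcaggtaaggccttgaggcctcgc
Cox8a: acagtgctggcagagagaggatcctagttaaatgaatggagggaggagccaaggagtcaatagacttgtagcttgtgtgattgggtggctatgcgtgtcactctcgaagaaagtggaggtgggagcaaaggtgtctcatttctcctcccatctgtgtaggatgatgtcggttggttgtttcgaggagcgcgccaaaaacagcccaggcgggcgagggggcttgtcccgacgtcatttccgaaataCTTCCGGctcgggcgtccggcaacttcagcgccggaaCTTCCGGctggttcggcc
Atp5j2: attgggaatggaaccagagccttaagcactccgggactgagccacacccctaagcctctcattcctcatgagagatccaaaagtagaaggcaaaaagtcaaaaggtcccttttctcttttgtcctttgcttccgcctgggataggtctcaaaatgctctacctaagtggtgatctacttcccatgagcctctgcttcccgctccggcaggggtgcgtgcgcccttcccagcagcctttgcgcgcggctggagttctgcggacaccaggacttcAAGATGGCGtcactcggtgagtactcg
mt-Atp8 and mt-Atp6 overlap: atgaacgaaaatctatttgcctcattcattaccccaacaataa

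Of the 102 nuclear members, 81 had a promoter among the 27025 of this length. On either strand the NRF1 letters were in 7 of the 81 (8.64%, against 0.977% of all promoters), the ETS letters in 18 (22.2% against 9.12%), the YY1 letters in 7 (8.64% against 1.49%), and any of these in 29 (35.8% against 11.1%). In Cox6a1 the NRF1 letters began 162 bases before the start, in Atp5g2 42 bases before it, in Cox8a both ETS matches lay around the start, and in Atp5j2 the YY1 letters lay just after it. A match describes letters in a window, and no binding was measured here.

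The libraries held 7556 (UT) and 7221 (BUP) barcodes, of which 7163 and 6776 had over 100 UMIs and under 20% mitochondrial UMIs. The cells used carried 82636729 and 89265372 UMIs, with medians of 8430 and 10420 per cell, and 76 barcode sequences occurred in both libraries. Cells were clustered without the members, so that no class was defined by the genes described. Of 23 classes, 15 were named from marker genes with the ending "-like" and 8 had no clear type and are called by their leading genes, and 22 were compared between the libraries, the fibroblast-like class having only 15 UT cells. The label of a colon carcinoma was checked too. The epithelial marker list reached 199 and 170 CPM (UMIs per 1000000 UMIs of the class) in the Nppb and Krt20 cluster and 41.97 and 38.3 CPM in the Ogn and Aspn cluster, the largest non-immune classes. Genes of the Y chromosome, which the male hosts carry, summed to 224 and 215 CPM in neutrophil-like cells but to 3.53 and 2.16 CPM in the Nppb and Krt20 cluster and 7.47 and 4.63 CPM in the Ogn and Aspn cluster.

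The nuclear members together made 16889 CPM of the UT cells and 19280 CPM of the BUP cells, and the mitochondrial members 30325 and 28053 CPM, so there were 1.80 mitochondrial UMIs for each nuclear one in UT and 1.46 in BUP. The libraries also differed in their mix of cells. Immune clusters made 81.0% of UT cells but 59.7% of BUP cells, and their ratio was 1.97 and 1.62, whereas that of the non-immune clusters was 1.52 and 1.35. The ratio was lower in BUP within both compartments. The cell filter bounds the mitochondrial level, because the 13 members are all the mitochondrial genes listed, and the 20% limit removed 393 UT and 445 BUP barcodes.

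Cell types differed far more than the libraries did. In UT the nuclear level ran from 4078 CPM in erythroid-like cells and 5198 in the Mir100hg and Cdh13 cluster to 19906 in the cell-cycle non-immune cluster, a 4.88-fold range. Neutrophil-like cells, short-lived granulocytes known to live mainly on glycolysis, came next with 5501 CPM in UT, and had 4777 CPM in BUP. The erythroid-like total includes hemoglobin UMIs, and with hemoglobin left out of the totals the nuclear range in UT was 3.83-fold. Cycling classes stood high, with 19629.7 and 20853 CPM (UT and BUP) in cycling CD8 T-like cells against 18478 and 20999 in the other CD8 T-like cells, and 19096 and 21799 CPM in cycling C1q macrophage-like cells against 16603 and 18040 in other C1q macrophage-like cells. In UT the cycling class was higher in both lineages, and in BUP in the macrophages alone. Of the unnamed non-immune classes, the Nppb and Krt20 cluster had 19693 and 21918 CPM and the Ogn and Aspn cluster 17893 and 19797.

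The mitochondrial members followed another order. They made 65422 CPM (UT) and 75493 CPM (BUP) in the Mir100hg and Cdh13 cluster, 41781 and 46241 in monocyte-like cells and 40142 and 37790 in C1q macrophage-like cells. They made least in erythroid-like cells, whose total includes hemoglobin UMIs, with 10729 and 6236 CPM. They made little in cycling CD8 T-like cells, with 19924 and 18741, and NK-like cells, with 20703 and 19185. The fibroblast-like class, which was not compared, had 11752 and 9303 CPM. All 13 members, taken one by one over the 22 compared classes, were highest in the Mir100hg and Cdh13 cluster in both libraries. In UT 12 of 13 were lowest in erythroid-like cells, the exception being mt-Atp8, lowest in mast-like cells. In BUP all 13 were lowest in erythroid-like cells. The Mir100hg and Cdh13 cluster was also where a list of RNAs kept in the nucleus was high, at 18518 and 22849 CPM, and where 20.7% of UT cells and 33.6% of BUP cells held over 10% mitochondrial UMIs, against 26.3% and 24.6% in monocyte-like cells. The part of the filter in these 2 levels was not tested.

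The number of mitochondrial UMIs per nuclear UMI thus separated the 22 compared classes by 12.4 times in UT. It was 12.6 and 14.5 (UT and BUP) in the Mir100hg and Cdh13 cluster, 5.1998 and 5.75 in neutrophil-like cells, 2.96 and 3.23 in monocyte-like cells, and 2.42 and 2.09 in C1q macrophage-like cells. CD8 T-like and NK-like cells stood near the other end, with 1.29 and 1.08 in CD8 T-like cells, 1.21 and 1.01 in NK-like cells and 1.01 and 0.90 in cycling CD8 T-like cells. Fibroblast-like cells, left out of the comparison for having only 15 UT cells, were lower still, at 0.891 and 0.529. The macrophage-like, monocyte-like and neutrophil-like classes had higher ratios than the T and NK classes in both libraries. Regulatory and gamma-delta T-like cells had the highest ratio of the T and NK classes, 1.54 and 1.36, and the dendritic classes lay within the range of these lymphocytes, with 1.40 and 1.27 in cDC1-like cells and 1.44 and 1.33 in migratory dendritic-like cells. Cycling C1q macrophage-like cells were in the middle of the order, at 1.87 and 1.54.

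**Figure D1:**
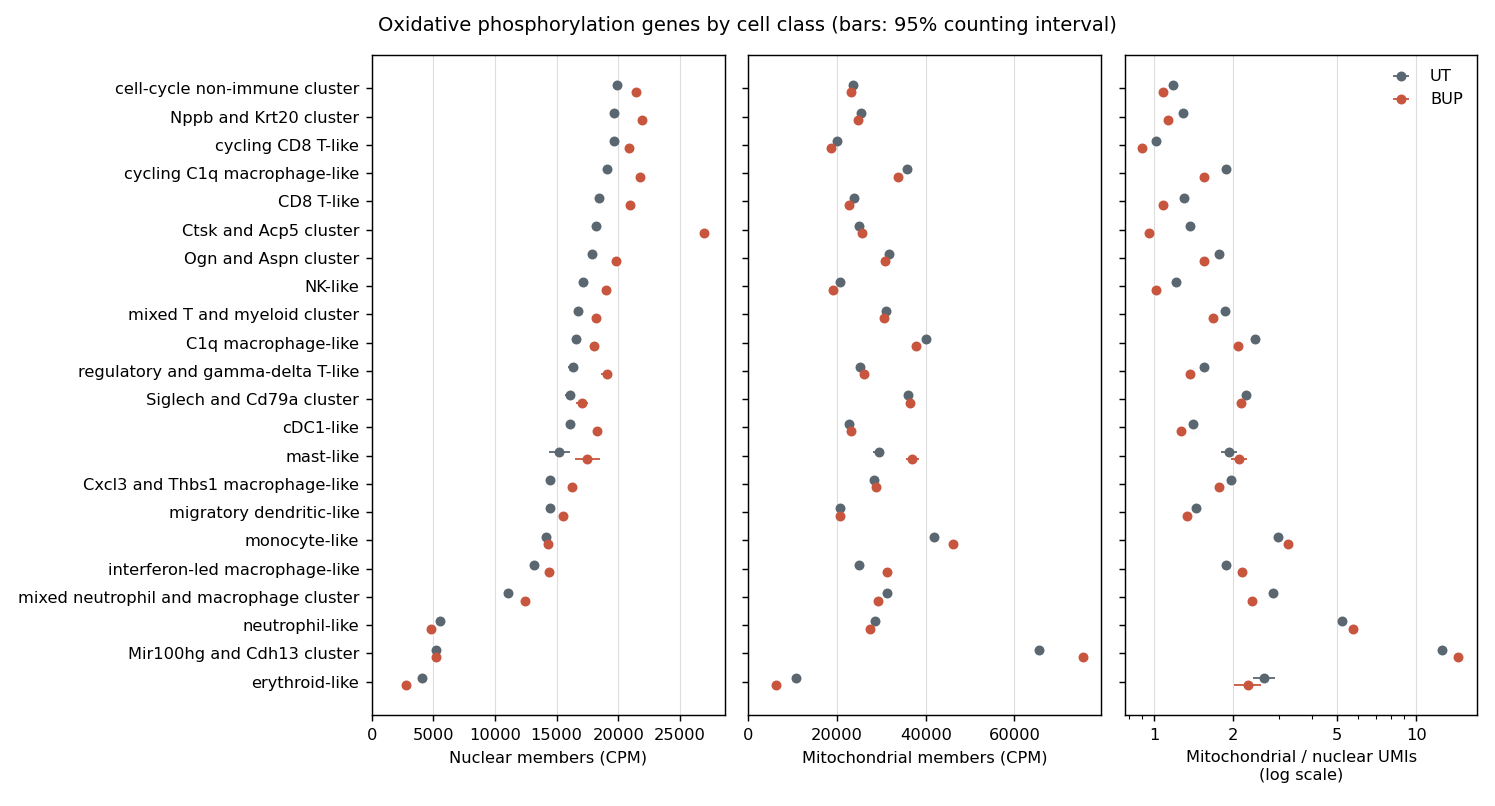
Summed nuclear members (CPM), summed mitochondrial members (CPM) and mitochondrial UMIs per nuclear UMI (log axis) in 22 classes, with UT and BUP as separate points and bars for the 95% counting interval. As shares of totals that include hemoglobin, the nuclear levels were lowest in the erythroid-like, Mir100hg and Cdh13 and neutrophil-like classes. The mitochondrial level was highest in the Mir100hg and Cdh13 cluster, so its ratio of 12.6 and 14.5 stands alone at the top.

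Across the 22 classes the nuclear and mitochondrial levels did not move together, with Spearman's rho of -0.18 in UT and -0.27 in BUP. The nuclear level instead ran with that of the mitochondrial ribosome proteins (rho 0.98 in both libraries), the tricarboxylic acid cycle enzymes (0.82 and 0.92), and the cytosolic ribosome proteins (0.84 and 0.83). These are descriptions over 22 classes of 2 libraries, whose levels are all shares of the UMIs of a class. The mitochondrial to nuclear ratio ran opposite to the cytosolic ribosome level (-0.88 and -0.82), and the nuclear level had a rho of 0.58 and 0.53 with the median UMIs per cell. The order of the classes was alike in the libraries, with a rho of 0.95 for the nuclear level, 0.93 for the mitochondrial level and 0.97 for the ratio.

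Single nuclear members mostly repeated the order of their sum. Cox4i1, the common form of a complex IV subunit, had 1118 and 1080 CPM (UT and BUP) in the Ogn and Aspn cluster, 315 and 230 in neutrophil-like cells and 231 and 186 in the Mir100hg and Cdh13 cluster. Atp5g2 had 1265 and 1310 CPM in the cell-cycle non-immune cluster but 138 and 90.8 in neutrophil-like cells, and Cox6a1 539 and 575 against 117 and 95.3. Sdhb, the iron-sulfur subunit of succinate dehydrogenase, was highest in UT in mast-like cells (293 and 272 CPM), then in cycling C1q macrophage-like cells (248 and 258). Mast-like cells had only 82013 UMIs in UT, so their place above the next class rests on few counts. In neutrophil-like cells Sdhb had 62.5 and 38.6 CPM. A few members departed from the order and were highest in the Mir100hg and Cdh13 cluster, where most nuclear members were low. Ndufaf2, an assembly factor of complex I, had 64.9 and 60.9 CPM there and 0.7 and 1.8 in neutrophil-like cells, the latter near the limit of the counts. Ndufs1, a large iron-sulfur subunit of complex I that was chosen after its values were seen, had 77.7 and 56.4 CPM there against 48.9 and 43.8 in the Ogn and Aspn cluster. Uqcc4, an assembly factor of complex III, was highest in UT in a non-immune class, with 58.7 and 53.8 CPM in the Nppb and Krt20 cluster. It had 2.2 and 1.8 CPM in neutrophil-like cells, also near the limit of the counts.

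Of 98 nuclear members with at least 200 UMIs in the compared classes of UT, 49 were lowest in erythroid-like cells, 22 in the Mir100hg and Cdh13 cluster and 18 in neutrophil-like cells. In BUP, of 96, the numbers were 63, 8 and 18. The erythroid-like total includes hemoglobin, and the class held 580 (UT) and 402 (BUP) nuclear member UMIs, so single members there rest on few counts. The highest class was spread more widely in UT, with 19 members highest in the Nppb and Krt20 cluster, 13 in cycling C1q macrophage-like cells and 12 in cycling CD8 T-like cells. In BUP 39 members were highest in the Ctsk and Acp5 cluster, where 2 had been in UT.

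That cluster, led by genes of osteoclasts, the bone-resorbing cells of the macrophage lineage, held 87 UT and 63 BUP cells. Its nuclear level was 18171 CPM in UT and 26998 CPM in BUP, the highest of any class in BUP, while its mitochondrial level was 24951 and 25676. Its makeup differed between the libraries, since the osteoclast markers summed to 1375 CPM in UT and 12635 in BUP, the cDC2 markers to 2145 and 1434 and the neutrophil markers to 221 and 1800. The cells were therefore split by how many of 5 osteoclast markers (Ctsk, Acp5, Mmp9, Atp6v0d2 and Ocstamp) had a UMI, a split chosen after the data were seen. Cells with 4 or 5 of them were 3 in UT and 13 in BUP, 3.45% and 20.6% of the cluster, and had nuclear levels of 40247 CPM (38759 to 41777) and 40999 CPM (40215 to 41794). These levels overlapped, with a log2 ratio of 0.03 (-0.03 to 0.09). Cells with none or 1 of the markers, 83 and 49, had 16069 and 18856 CPM (log2 ratio 0.23, 0.19 to 0.27). The marker-rich cells stood above all 22 classes of either library in their nuclear level, with a mitochondrial to nuclear ratio of 0.680 and 0.795. They were also deeper, with medians of 24697 (UT) and 15528 (BUP) UMIs per cell against 8435 and 7792 in cells with none or 1 marker. The part of depth was not tested. Nor was the part of the marker-rich cells' larger share in the higher level of the whole cluster in BUP. The cells with none or 1 marker were also higher in BUP, and 3 UT cells are a very small number.

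The size of the gap differed among members. Atp5g3, a c-ring gene, had 2422 and 2145 CPM (UT and BUP) in the marker-rich cells against 479 and 543 in the cells with none or 1 marker. Atp5b, the catalytic beta subunit of ATP synthase, had 1692 and 1531 against 577 and 550, and Uqcrc1, a core protein of complex III, 481 and 500 against 136 and 162. Sdhb stood at 627 and 602 against 196 and 224. Cox8a was closer in the cell groups, at 1357 and 1567 CPM against 648 and 895. All 5 genes were higher in the marker-rich cells in both libraries, and they were picked for this comparison after the values were seen.

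**Figure D2:**
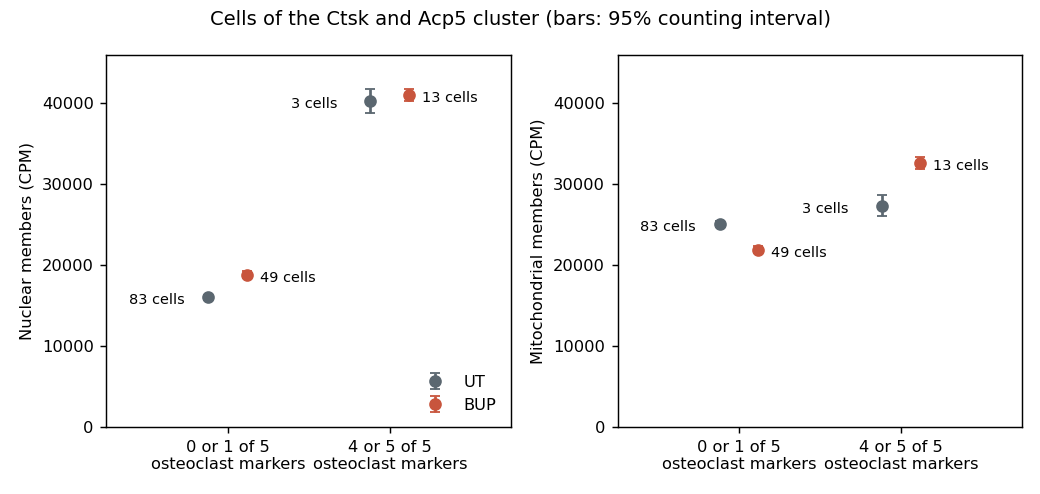
Summed nuclear and mitochondrial members (CPM) in cells of the Ctsk and Acp5 cluster with none or 1 and with 4 or 5 of 5 osteoclast markers, by library, with cell numbers and 95% counting intervals. The 3 UT and 13 BUP marker-rich cells sit near 40247 and 40999 CPM for the nuclear members, above the 16069 and 18856 CPM of the other cells.

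Some complex IV subunits and the c-ring of ATP synthase have alternative genes, of which cells use one form more than another. Cox6a2 is the heart and muscle form of the subunit whose common form is Cox6a1. In the Siglech and Cd79a cluster, which mixes plasmacytoid dendritic and B cell markers, Cox6a2 made 273 of 381 UMIs of the pair in UT (71.7%, 66.8 to 76.1, exact binomial) and 227 of 306 in BUP (74.2%, 68.9 to 79.0). Apart from 1 of 18 UMIs in erythroid-like cells of UT, the next highest class, the Nppb and Krt20 cluster, had 2.70% and 2.03%. Its level there was 705.7 CPM (UT) and 829.6 CPM (BUP). The cells carrying Cox6a2 numbered 29 of the 43 in UT and 22 of the 38 in BUP, and all were among the 32 and 23 cells with a UMI of Siglech, a surface receptor of plasmacytoid dendritic cells. None of the other 11 UT and 15 BUP cells of the cluster had a UMI of it, which for so few cells allows a share of cells with a UMI of up to 27.3% and 20% and does not show that they lack the RNA. In the remaining classes 192 of 7120 UT cells (2.70%) and 176 of 6738 BUP cells (2.61%) had one, although their median depth was greater, at 8448 and 10440.5 UMIs against 5802 and 4141.5. Cox6a2 lies on chr7:127804607-127805559 (GRCm39, minus strand, ENSMUSG00000030785).

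Ndufa4l2, a relative of the complex IV subunit gene Ndufa4 that is known as a hypoxia-inducible gene, was a feature of the non-immune classes. It made 305 of 2800 UMIs of the pair in UT (10.9%, 9.76 to 12.1) and 276 of 4727 in BUP (5.84%, 5.19 to 6.55) in the Nppb and Krt20 cluster. In the Ogn and Aspn cluster it made 59 of 1100 (5.36%, 4.11 to 6.86) and 133 of 3847 (3.46%, 2.90 to 4.08). In CD8 T-like cells it made 3 of 384 and 2 of 672, and in C1q macrophage-like cells 1 of 2885 and 3 of 1443. The intervals of the libraries did not overlap in the Nppb and Krt20 cluster or in the Ogn and Aspn cluster, but few cells carried the gene, and in the Nppb and Krt20 cluster the 5 cells with most of it held 53.1% (UT) and 33.7% (BUP) of its UMIs. Fibroblast-like cells had the highest share, at 18 of 74 (24.3%, 15.1 to 35.7) in UT and 196 of 610 (32.1%, 28.4 to 36.0) in BUP, where 27 of 64 cells carried it.

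**Figure D3:**
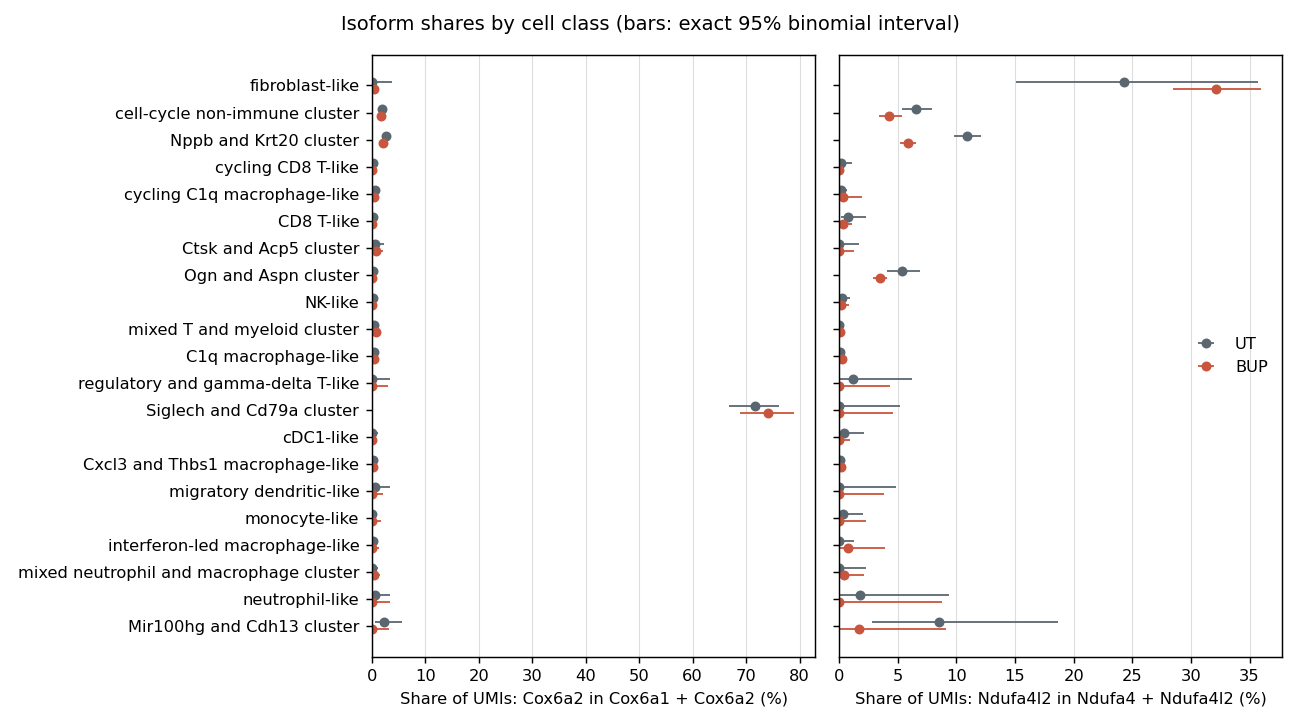
Share of Cox6a2 in the UMIs of Cox6a1 and Cox6a2, and of Ndufa4l2 in those of Ndufa4 and Ndufa4l2 (percent), by class and library, with exact binomial 95% intervals. Cox6a2 reaches 71.7% and 74.2% in the Siglech and Cd79a cluster and stays at 2.70% or less in the other classes shown, and Ndufa4l2 is highest in the fibroblast-like class, then in the Nppb and Krt20 cluster of UT.

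Cox4i2, the second form of the Cox4 subunit, was rare and sat mainly in macrophages. It made 153 of 14205 UMIs of its pair in UT (1.08%, 0.91 to 1.26) and 23 of 5765 in BUP (0.40%, 0.25 to 0.60) in C1q macrophage-like cells, in 88 of 1063 and 20 of 448 cells. In CD8 T-like cells it was at 0 of 2327 and 0 of 3548, which allows a share of up to 0.129% and 0.0846%. Cox7a1, the muscle form of the Cox7a subunit, made 76 of 3146 (2.42%) and 24 of 1550 (1.55%) in C1q macrophage-like cells and 1 of 501 and 4 of 945 in CD8 T-like cells. Cox6b2, known as a testis form, made 40 of 3044 and 20 of 2780 in Cxcl3 and Thbs1 macrophage-like cells and 0 of 2100 (up to 0.143%) and 1 of 8407 in the Ogn and Aspn cluster. These genes have shares near the limit of the counts, and free RNA in the droplets was not measured. Of the 115 members, 107 had enough UMIs for a ratio in at least 1 class. The other 8 were Cox4i2 with 474 UMIs in all cells, Cox7a1 with 471, Cox6b2 with 345, Cox7b2 with 8, Cox8b with 3 and Cox8c with 0, and the gene copies Ndufb4b with 526 and Ndufb11b with 0, which are nearly identical to Ndufb4 and Ndufb11 so that their counts are uncertain.

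The 3 c-ring genes encode the same mature protein with different import sequences, and the mix differed by lineage. Atp5g2 gave 51.5% and 51.6% (UT and BUP) of their UMIs in the Ogn and Aspn cluster, 45.2% and 46.3% in the Nppb and Krt20 cluster, 41.5% and 44.1% in CD8 T-like cells, and 37.9% and 36.1% in C1q macrophage-like cells. Atp5g1 showed the reverse, at 9.35% and 10.9% in the Ogn and Aspn cluster, 14.5% and 15.3% in CD8 T-like cells and 18.5% and 21.4% in Cxcl3 and Thbs1 macrophage-like cells. For both genes the non-immune and macrophage classes lay farther apart than the libraries did within a class.

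Between the treatments, the nuclear members together were higher in BUP in 20 of the 22 classes and lower in 2, with a median log2 ratio of BUP over UT of 0.14. The interval lay above 0 in 18 classes and below 0 in 2. In the largest class, Cxcl3 and Thbs1 macrophage-like cells (1318 UT and 835 BUP cells), the level was 14455 CPM (14384 to 14527) in UT and 16263 CPM (16172 to 16354) in BUP. The mitochondrial members did not share this direction, being higher in BUP in 9 classes and lower in 13, with a median of -0.03, or of 0.021 when the libraries were scaled by the median ratio of genes. That scaling moved a class by 0.07 or less on the log2 scale, except the mast-like class, whose median gene stood at 0.14. The mitochondrial to nuclear ratio was accordingly lower in BUP in 17 classes and higher in 5, with a median of -0.17. The Ctsk and Acp5 cluster had the largest nuclear log2 ratio (0.57). It also had the most negative log2 difference between BUP and UT in the mitochondrial to nuclear ratio (-0.53).

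Counted gene by gene, with at least 200 UMIs over both libraries in a class, a log2 ratio past 0.25 was met by 502 higher and 98 lower of 1515 pairs of a class and a member. Over all genes and classes 10.6% of pairs were higher past this fold and 16.9% lower. Without the Ctsk and Acp5 cluster the counts were 451 and 97 of 1447, and without the 4 clusters that mix lineages 397 and 89 of 1249, both chosen after the data were seen. Nuclear members gave 473 higher and 60 lower of 1257 pairs, and mitochondrial members 29 and 38 of 258. The counts over classes draw on the same 2 libraries and so do not add independent evidence.

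In Cxcl3 and Thbs1 macrophage-like cells, 42 of 85 nuclear members were higher past the fold and 0 lower, where 8.26% and 16.1% of all genes were. In CD8 T-like cells the numbers were 34 and 3 of 80 (10.7% and 21.4% of all genes), and in the Ogn and Aspn cluster 33 and 1 of 91 (5.58% and 14.5%). The Nppb and Krt20 cluster had 37 and 3 of 94 (5.86% and 12.7%), NK-like cells 26 and 2 of 81 (8.81% and 20%), and C1q macrophage-like cells 32 and 5 of 89 (12.4% and 15.1%). In each of these classes the higher members were a larger share than among all genes and the lower members a smaller one.

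The smaller and the mixed classes gave counts in the same direction, with wider backgrounds. In cycling C1q macrophage-like cells 34 nuclear members were higher and 0 lower of 81 (12.9% and 20.6% of all genes), and in cDC1-like cells 32 and 0 of 66 (13.7% and 20.1%). Cycling CD8 T-like cells were closer to the background, with 14 and 8 of 80 (11.7% and 16.8%). The mixed T and myeloid cluster had 23 and 2 of 86 (8.35% and 15.7%), the mixed neutrophil and macrophage cluster 25 and 2 of 59 (14.3% and 16.2%), and the cell-cycle non-immune cluster 29 and 1 of 88 (7.59% and 14.1%). Thus macrophage, dendritic, lymphocyte and non-immune classes all held more higher than lower members. The Ctsk and Acp5 cluster, whose makeup differed between the libraries as given above, had 51 and 0 of 57 (24.9% and 29.6%). Shallow classes tested few members, with 10 and 2 of 21 in regulatory and gamma-delta T-like cells (25.7% and 22.0% of all genes), 10 and 1 of 30 in migratory dendritic-like cells (20.6% and 22.7%) and 4 and 1 of 16 in the Siglech and Cd79a cluster (29.7% and 27.3%), the last below the background for higher genes. The Mir100hg and Cdh13 cluster went the other way in its few tested members, with 1 higher and 8 lower of 15 (20.7% and 24.9%), although its nuclear sum was 5198 and 5208 CPM.

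By complex, the median log2 ratio over the classes was 0.14 for nuclear complex I, -0.19 for complex II, 0.20 for complex III, 0.20 for complex IV and 0.08 for complex V. Complex II, the one complex with no mitochondrial subunit, was lower in BUP in 21 of 22 classes, the Ctsk and Acp5 cluster being the exception with 0.48. The tricarboxylic acid cycle enzymes, of which complex II is also a part, had a median of -0.11 and were lower in 18 classes. Cytosolic ribosome proteins had a median of 0.18 and were higher in 19, and the mitochondrial ribosome proteins had a median of 0.02. A list of electron carriers and complex members outside the set, Cyc1 among them, had a median of -0.03. The mitochondrial genes of complexes I, III, IV and V had medians of -0.08, -0.04, -0.02 and 0.03.

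**Figure D4:**
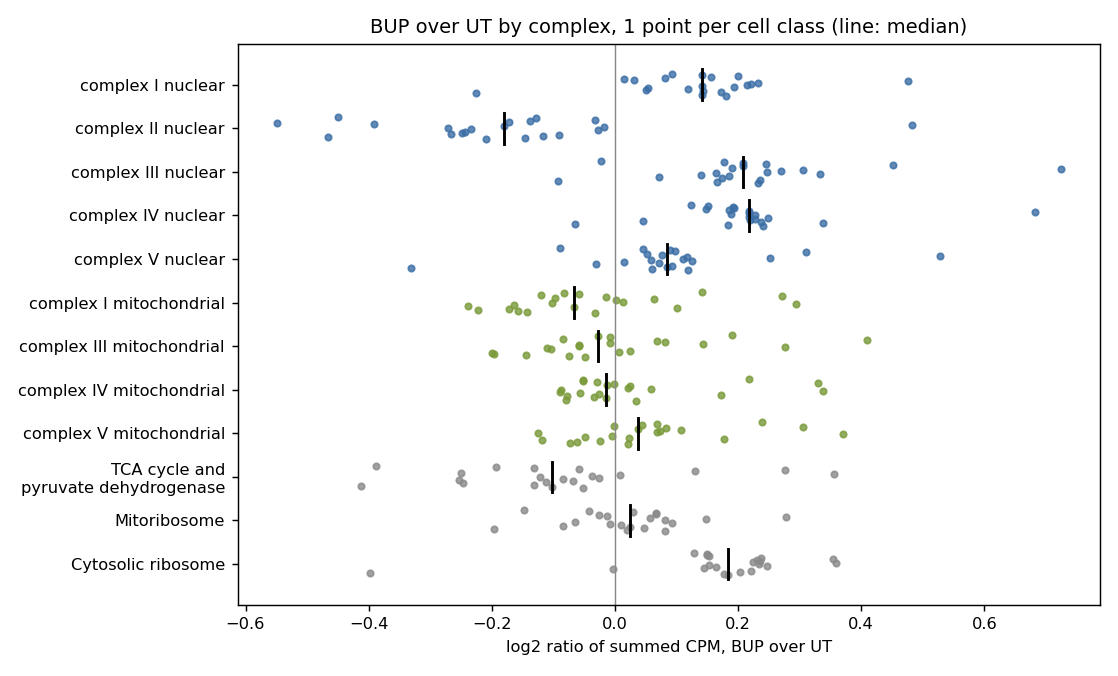
Log2 ratio of BUP over UT for the summed genes of each list, with 1 point per class for 21 classes (erythroid-like cells are left out of the plot) and a line at the median. Nuclear complexes I, III, IV and V and the cytosolic ribosome lie mostly above 0, while complex II and the tricarboxylic acid cycle lie mostly below it.

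Within complex I the accessory subunits, which surround the catalytic core, were higher in 166 of 393 pairs of a class and a gene and lower in 6. The 7 nuclear core subunits, among them those that carry the flavin and iron-sulfur clusters, were higher in 5 of 91 pairs and lower in 8. Over all genes and classes 10.6% of pairs were higher and 16.9% lower, so the accessory subunits were above this share for higher pairs and the core subunits below it in both directions. Ndufa6, an accessory subunit, had 221 CPM in UT and 278 CPM in BUP in Cxcl3 and Thbs1 macrophage-like cells, a log2 ratio of 0.33 (0.24 to 0.41), and it was higher past the fold in 15 of 17 classes. Ndufa13 and Ndufa1, accessory subunits chosen after their values were seen, were higher in 14 of 16 and 13 of 14. Ndufb9, the nuclear complex I member with most UMIs, showed little difference, with 189 and 190 CPM in the same cells and 428 and 442 in the Ogn and Aspn cluster. Ndufv1, a core subunit chosen after its values were seen, had 85.8 and 63.0 CPM in CD8 T-like cells, a log2 ratio of -0.44 (-0.74 to -0.15). Over the 11 classes in which it was tested, it was lower past the fold in 1 and higher in 0, with a median of -0.09.

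The 4 genes of complex II, succinate dehydrogenase, had small and mostly negative values. In Cxcl3 and Thbs1 macrophage-like cells Sdha, the flavoprotein, had 63.8 and 54.0 CPM (log2 ratio -0.24), Sdhb 194 and 170 (-0.19), Sdhc, a membrane anchor, 73.3 and 64.2 (-0.19), and Sdhd, the other anchor, 155 and 131 (-0.24, -0.35 to -0.12). All 4 were below 0 there and none passed the fold. In the Ogn and Aspn cluster Sdhc had 112 CPM in UT and 93.9 in BUP, a log2 ratio of -0.25 (-0.37 to -0.13). In CD8 T-like cells Sdhc had the other sign, with 57.8 and 63.0 CPM (0.13, -0.20 to 0.46). Over the classes 12 of 52 pairs were lower past the fold and 2 higher, where over all genes 16.9% of pairs were lower and 10.6% higher, so the share of lower pairs was not far from that of all genes.

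The 8 nuclear complex III subunits in the set, which by its symbols leaves out the cytochrome c1 gene Cyc1, were higher in 61 of 123 pairs and lower in 2. Over all genes and classes the shares were 10.6% and 16.9%. Uqcrq, a small subunit, had 209 CPM in UT and 299 CPM in BUP in Cxcl3 and Thbs1 macrophage-like cells, a log2 ratio of 0.52 (0.43 to 0.60), and 121 and 155 CPM in the Ogn and Aspn cluster (0.36). Uqcrh, the hinge protein beside cytochrome c1, had 465 and 604 CPM in CD8 T-like cells (0.38) and was higher in 15 of 19 classes. Uqcr11, another small subunit, had 106 and 147 CPM in the Ogn and Aspn cluster (0.47, 0.35 to 0.59). The core protein Uqcrc1 differed from these, with 144 and 145 CPM in Cxcl3 and Thbs1 macrophage-like cells.

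The 11 common nuclear subunits of complex IV were higher in 115 of 194 pairs and lower in 5 (10.6% and 16.9% over all genes and classes). Cox8a had 779 CPM in UT and 1139 CPM in BUP in CD8 T-like cells, a log2 ratio of 0.55 (0.47 to 0.63), 579 and 696 in Cxcl3 and Thbs1 macrophage-like cells (0.26, 0.21 to 0.32) and 624 and 821 in the Ogn and Aspn cluster (0.40, 0.35 to 0.45). It was higher past the fold in 19 of 20 classes. Cox5b, a zinc-binding subunit, had 353 and 503 CPM in CD8 T-like cells (0.51, 0.39 to 0.64) and was higher in 16 of 19. Cox4i1, the nuclear complex IV member with most UMIs, stood apart with 868 and 872 CPM in Cxcl3 and Thbs1 macrophage-like cells, 1019 and 1153 in CD8 T-like cells (0.18) and 1118 and 1080 in the Ogn and Aspn cluster (-0.05). Cox7a2l, which helps complexes III and IV join into supercomplexes, was lower in 4 of 19 classes and higher in none, with 201 and 175 CPM in Cxcl3 and Thbs1 macrophage-like cells (-0.20).

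In complex V the subunits of F1, the catalytic part, were higher in 22 of 98 pairs and lower in 12. The stalk and membrane subunits outside F1 were higher in 75 of 201 and lower in 5. Over all genes and classes 10.6% of pairs were higher and 16.9% lower. Of the 22 higher F1 pairs, 18 belonged to Atp5e, the small epsilon subunit (chr2:174302861-174305906, GRCm39, minus strand, ENSMUSG00000016252), which was tested in 19 classes. Atp5e had 274 CPM in UT and 395 CPM in BUP in Cxcl3 and Thbs1 macrophage-like cells (0.53, 0.45 to 0.60), 443 and 626 in CD8 T-like cells (0.50, 0.39 to 0.61) and 249 and 350 in the Ogn and Aspn cluster (0.49, 0.42 to 0.57). Another F1 subunit, Atp5b, went the other way, with 670 and 530 CPM in CD8 T-like cells (-0.34, -0.44 to -0.24). Atp5b was lower in 5 of 20 classes and higher in 1. Among membrane subunits Atp5j2, whose promoter is shown above, had 266 and 370 CPM in the Ogn and Aspn cluster (0.47, 0.40 to 0.55). Of the c-ring genes, Atp5g2 and Atp5g3 hardly differed in Cxcl3 and Thbs1 macrophage-like cells, with 452 and 455 CPM and 519 and 510. The share of Atp5g1 among the c-ring UMIs was higher in BUP in these cells, as given above. The inhibitor of ATP synthase, listed under its older symbol Atpif1 and therefore not among the members, was highest in cDC1-like cells with 407 and 484 CPM, and had 54.4 and 44.0 CPM in neutrophil-like cells.

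The mitochondrial members come from shared transcripts, yet their ratios of BUP over UT were not all alike. Of all mitochondrial UMIs in UT and BUP, mt-Co1 gave 20.9% and 20.2%, mt-Co3 18.8% and 18.4%, mt-Co2 16.6% and 17.1%, mt-Atp6 15.5% and 16.7% and mt-Cytb 10.7% and 11.03%. These 5 genes, subunits of complexes IV, V and III, had much the same shares in both libraries. The relative differences were larger among small shares, with mt-Atp8 at 1.43% and 0.967%, mt-Nd3 at 0.290% and 0.405%, mt-Nd1 at 4.45% and 3.74% and mt-Nd6 at 0.211% and 0.185%.

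The gene mt-Atp8, which encodes a short ATP synthase subunit, was lower past the fold in 19 of 20 classes. It had 415 CPM in UT and 269 in BUP in Cxcl3 and Thbs1 macrophage-like cells (-0.63, -0.70 to -0.55), 348 and 203 in CD8 T-like cells (-0.78, -0.93 to -0.63) and 485 and 317 in the Ogn and Aspn cluster (-0.62, -0.68 to -0.56). Its neighbor mt-Atp6 lies on the same transcript and shares the 43 bases printed above, yet had 4450.4 and 4666 CPM, 3705 and 3782 CPM and 5142 and 5306 CPM in the same classes. The log2 ratio of mt-Atp6 was at most 0.07 there, so the neighbors differed. How reads of the shared 43 bases were assigned is not given in the sources used here, and the part of that assignment was not tested.

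The complex I gene mt-Nd3 was higher past the fold in 16 of 16 classes, with 78.3 and 112 CPM in Cxcl3 and Thbs1 macrophage-like cells (0.52, 0.38 to 0.66), 83.6 and 108 in CD8 T-like cells (0.37) and 100.01 and 122 in the Ogn and Aspn cluster (0.29). Another complex I gene, mt-Nd1, was lower in 8 of 20 classes, with 1162 and 927 CPM in CD8 T-like cells (-0.33, -0.40 to -0.25) and 1174 and 977 in the Ogn and Aspn cluster (-0.27, -0.30 to -0.23). The light-strand gene mt-Nd6, read from the opposite strand of mt-Nd5 and overlapping its end, had 67.4 and 44.8 CPM in CD8 T-like cells (-0.59) but 58.0 and 63.2 in Cxcl3 and Thbs1 macrophage-like cells (0.12, -0.05 to 0.30). For mt-Nd2, mt-Nd4, mt-Nd4l and mt-Nd5 the ratios in these 3 classes lay between -0.25 and 0.06. Nuclear copies of mitochondrial sequence can take reads of these genes, so their counts are uncertain to that extent.

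Several classes departed from this pattern. Neutrophil-like cells had a lower nuclear level in BUP, 5501 and 4777 CPM (log2 ratio -0.20), with 1 of 19 members higher past the fold and 8 lower (16.1% and 23.2% of all genes). In the same cells the neutrophil markers went from 72090.1 to 106173 CPM, the interferon list from 3817 to 2096 CPM and the cytosolic ribosome proteins from 37538 to 28484 CPM. The part of these in the result was not tested. Erythroid-like cells had 4078 and 2740 CPM (-0.57), and their ratio was 0.017 when hemoglobin genes were left out of the total. None of their nuclear members reached the floor of 200 UMIs, and all 5 mitochondrial members that did were lower past the fold (26.8% of all genes were higher and 28.6% lower). The totals behind these mitochondrial values include hemoglobin, and the values were not computed without it. Mitochondrial UMIs per nuclear UMI, which do not depend on the total, were 2.63 (2.39 to 2.90) in UT and 2.28 (2.02 to 2.57) in BUP. Monocyte-like cells were split, with 12 members higher and 11 lower of 57 (17.4% and 17.1% of all genes) and nuclear levels of 14124 and 14294 CPM.

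In interferon-led macrophage-like cells the mitochondrial members were higher in BUP by more than in the other macrophage-like classes, where their log2 ratios were 0.01 (Cxcl3 and Thbs1), -0.09 (C1q) and -0.09 (cycling C1q). Their sum was 24872 CPM in UT and 31286 CPM in BUP (0.33), and 8 of 12 tested mitochondrial genes were higher past the fold and none lower, where 15.7% of all genes were higher and 14.5% lower. In these cells mt-Co2 had 4243 and 5832 CPM (0.46) and mt-Atp6 3835 and 5069 (0.40), while mt-Atp8 was at -0.08. The class held 201 UT and 78 BUP cells, and its neutrophil markers summed to 2598 CPM (UT) and 3593 CPM (BUP), whose part in the result was not tested. Mast-like cells, 35 and 34, also had a higher mitochondrial sum, 29373 and 36943 CPM (0.33), with 3 of 5 tested genes higher and 0 lower (35.1% and 23.4% of all genes). They were shallower in BUP, with medians of 1638 (UT) and 905 (BUP) UMIs per cell. Of these cells 2.86% (UT) and 14.7% (BUP) held 10% mitochondrial UMIs or more, and the part of this in the result was not tested.

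Most nuclear members that were higher past the fold had a property that the rule had not used, a short coding sequence. Of 102 nuclear members, 61 had under 500 coding bases, 40 had 500 or more, and Ndufb4b had no length in the annotation. The short members were higher past the fold in 425 of 751 pairs and lower in 13, and the long ones higher in 48 and lower in 47 of 506. Over all genes and classes 10.6% of pairs were higher and 16.9% lower, so the share of higher pairs among long members was near that of all genes. Among members tested in at least 10 classes, 16 nuclear ones were higher in 75% or more of them, and all 16 were short, the longest being Cox8a with 456 coding bases. Of the 13 nuclear members lower in more classes than they were higher, 1 (Sdhd, 477 bases) was short. Neither of these counts over classes was made for genes outside the set. The complex I accessory subunits had a median of 420 coding bases and the nuclear core subunits 1059. The F1 subunits of ATP synthase had 894 against 393 for the stalk and membrane subunits, so role and length ran together over these groups. Within the F1 subunits, 18 of the 22 higher pairs belonged to Atp5e, the shortest of them with 156 coding bases. The parts of role and length were not tested.

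Within a class, Spearman's rho between coding length and the log2 ratio had a median of -0.68 over the 15 classes with 50 or more nuclear members tested (from -0.80 to -0.37), and of -0.09 for the other genes (from -0.33 to 0.18). The median log2 ratio of the short members was 0.29, against 0.07 for other genes as short, and 0.05 for these without cytosolic ribosome genes. Short members were above other short genes in 15 of 15 classes. The long members had a median of -0.03, against -0.07 for other long genes, and were above them in 11 classes. In Cxcl3 and Thbs1 macrophage-like cells 22.4% of other genes under 500 coding bases were higher past the fold and 5.94% of longer ones, against 39 of 51 short members and 3 of 34 long ones. A tendency of short genes to be higher in BUP thus also existed outside the set, and its part in the result was not tested. The mitochondrial genes did not follow length, because mt-Atp8 with 201 coding bases was lower and mt-Nd3 with 345 was higher.

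**Figure D5:**
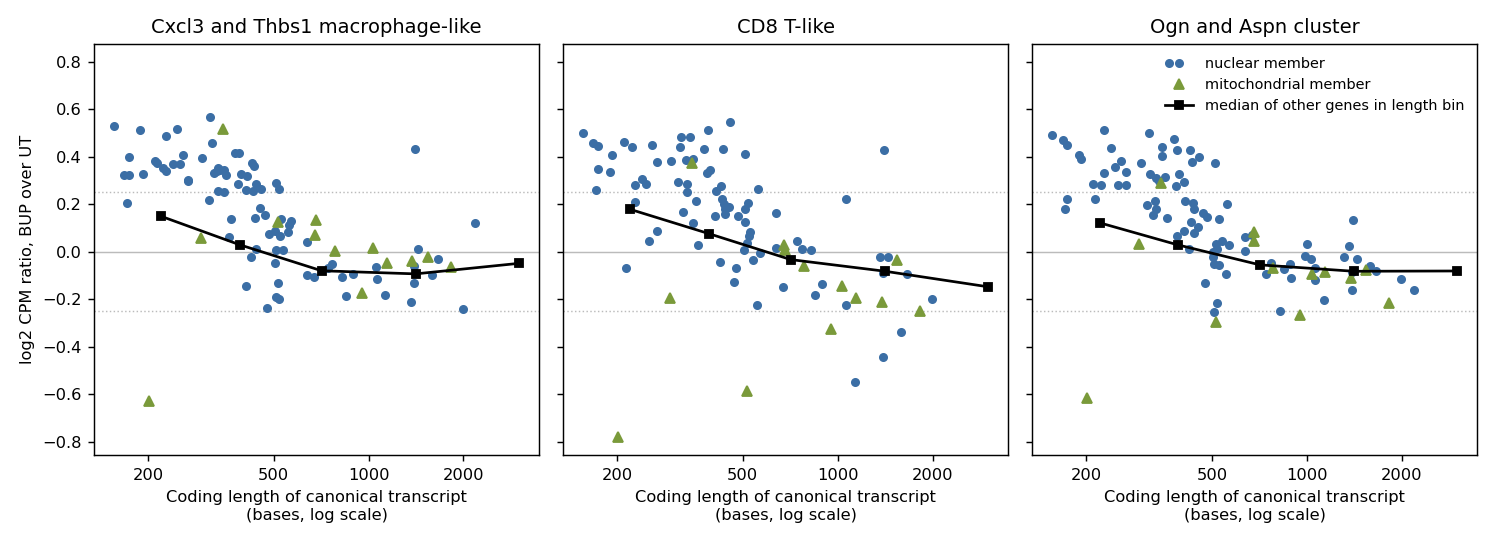
Log2 ratio of BUP over UT of each tested member against coding length in bases (log axis) in Cxcl3 and Thbs1 macrophage-like cells, CD8 T-like cells and the Ogn and Aspn cluster, with black squares for the median of other genes in each length bin and dotted lines at 0.25 either side of 0. Most nuclear members under 500 bases lie above the upper line and most longer ones between the lines.

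Assembly factors, which help to build the complexes and are not part of them, were also more often higher than lower. Those of complex I, 8 genes, were higher in 11 of 42 pairs and lower in 1, and the 6 of complex III in 16 of 41 and 3, where over all genes and classes 10.6% of pairs were higher and 16.9% lower. In Cxcl3 and Thbs1 macrophage-like cells 7 of 75 mitochondrial ribosome proteins were higher and 5 lower, 0 of 16 tricarboxylic acid cycle enzymes were higher and 4 lower, and 38 of 81 cytosolic ribosome proteins were higher and 0 lower, where 8.26% of all genes were higher and 16.1% lower. CD8 T-like cells had 7 and 3 of 53, 0 and 4 of 14, and 39 and 1 of 80 for the same lists, where 10.7% of all genes were higher and 21.4% lower. The mitochondrial ribosome proteins were thus near the share of all genes for higher ones in both classes. The cytosolic ribosome list, whose proteins serve translation outside mitochondria, had a share of higher genes like that of the nuclear members in these classes, and its sum in Cxcl3 and Thbs1 macrophage-like cells was 85632 CPM (UT) and 97265 CPM (BUP). Its part in the nuclear result was not tested. The balance of the nuclear complexes differed between the libraries as well. Complex IV gave 25.0% of nuclear member UMIs in CD8 T-like cells of UT and 27.7% of BUP, complex V 35.9% and 33.5%, and complex II 2.54% and 2.06%.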

How the data were processed

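The libraries were 10x Genomics 5′ single-cell RNA libraries of 3 pooled tumors each, run on the same chip. According to the methods and the submitters' processing notes, the authors mapped the reads to GRCm39 with Cell Ranger (8.0.1 in the notes) and deposited whole-number UMI counts per gene and barcode, 1 matrix per library. They analyzed them in Seurat (5.0.1 in the notes). Barcodes with over 100 UMIs and under 20% mitochondrial UMIs were kept here, after the filter in the methods, which left 7163 and 6776 cells. Cells were clustered in Seurat 5.3.0 (R 4.3.3) from 2000 variable genes from which the members were left out, 20 principal components and a resolution of 0.5. A cluster was called immune where Ptprc was seen in 30% or more of its cells, and was named only from at least 3 detected markers. No doublets were removed in the main analysis.

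UMIs were summed per class and library and given as CPM with exact Poisson intervals, shares with exact binomial (Clopper-Pearson) intervals, and ratios with exact conditional intervals (scipy 1.17.1), which cover counting error only. Classes needed 20 cells in each library. A gene was tested for the fold with 200 UMIs over both libraries in a class, and called past the fold at a log2 ratio of 0.25 or over in size. No p-value was computed. The ratios and intervals were tested on simulated data drawn with counting error alone. That checks the calculation and does not cover variation between cells, tumors or libraries.

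The members and all lists were chosen with earlier results of these data known. The genes named were the mitochondrial members, the 2 nuclear members with most UMIs per complex, the member of each complex with the widest range over classes in UT, the alternative isoforms, Sdha to Sdhd, and the 3 highest and 3 lowest ratios, among members of at least 100 CPM, in the largest macrophage, CD8 T and non-immune class. Others are said to be chosen after their values were seen. Coding lengths came from the GRCm39 annotation. Promoters came from RefSeq on GRCm38.p6 and were used for letters only. Other cell filters, clusterings, doublet removal (Scrublet), weights, thinning, denominators, scalings, floors and folds were tried.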

Additional observations from a re-analysis of the deposited data

Results flagged for a closer look

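The summed nuclear members had a log2 ratio of BUP over UT of -0.20 in neutrophil-like cells and -0.57 in erythroid-like cells, where the other 20 classes were above 0. The difference between these classes and the others was not tested, since each condition had 1 library. Both classes were shallow, with medians of 1884.5 and 2131 UMIs per cell (UT and BUP) in neutrophil-like cells and 1031.5 and 1116 in erythroid-like cells, and the part of depth was not tested.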

How the results depend on the processing

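No paired analysis was possible because each condition had 1 library, and for the same reason no replicate could be left out. Sums over 22 classes drew on as few as 34 cells in a class, the mitochondrial limit bounds the mitochondrial values, and class names were rebuilt from markers. Among the 22 compared classes, the highest to lowest in UT was 4.88-fold for the nuclear level, 6.10-fold for the mitochondrial level and 12.4-fold for their ratio. The mitochondrial range was 5.61 with under 10% mitochondrial UMIs per cell, 3.28 with at least 1000 UMIs and 500 genes, 6.49 without the 6% highest doublet scores, 6.76 with each cell weighing the same and 3.31 with cells thinned to 2000 UMIs, which left out 1009 UT and 653 BUP cells. In the order of under 10% mitochondrial UMIs, 30 components, members kept for clustering, doublet removal, equal weight and thinning, the range of the ratio was 10.8, 11.3, 11.7, 15.1, 13.5 and 14.3. The nuclear range was 3.83 with at least 1000 UMIs and 500 genes, and also with hemoglobin out of the total. Without the erythroid-like class and the Mir100hg and Cdh13 cluster, a choice made after seeing the data, the 3 ranges were 3.62, 2.10 and 5.12, so these classes set much of their size.

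The median log2 ratio of BUP over UT was 0.14 for the nuclear level, and it was 0.17 with median-ratio scaling. In alternatives chosen after seeing the data it was 0.24 for nuclear members under 500 coding bases, -0.030 for those of 500 and over, and 0.022 relative to genes with transcripts under 1000 bases. The mitochondrial median of -0.03 became 0.021 with median-ratio scaling, and over all cells without classes it was -0.11, or -0.078 without a mitochondrial limit. The median of the mitochondrial to nuclear ratio, -0.17, was -0.20 with equal weights and -0.21 after thinning. The nuclear ratio of erythroid-like cells, -0.57, was 0.017 without hemoglobin, a change that follows from the smaller total. The cause of the other shifts was not tested. Members past the fold numbered 502 higher and 98 lower. With a floor of 50 UMIs 199 were lower, with a floor of 1000 UMIs 265 were higher and 32 lower, since fewer genes were tested, and with a fold of 0.5 94 and 36. Single genes were followed only under other cell filters, clusterings, doublet removal and median-ratio scaling, where 126 of 126 values kept their sign. These genes were the ones named for the highest and lowest ratios in the same data, so a change of sign was unlikely from the start. Of the values of single classes under the settings applied to them, 309 of 340 nuclear, 167 of 192 mitochondrial and 161 of 170 ratio values kept their sign.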
